A study of Mus musculus with 8 samples.

Results

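Kupffer cells are the resident macrophages of the liver. Here 10 genes that mark them or macrophages in general were followed in single livers of wild type and TgC6hp55 mice: the complement genes C1qa, C1qb and C1qc, the surface genes Adgre1, Clec4f, Vsig4 and Marco, the secreted factor gene Cd5l, and Csf1r and Cd68. Every probe whose annotated symbol was on this list was taken, which gave 11 probes of 8 genes, out of 16592 named genes with a probe. Of these 8 genes, 7 passed the detection filter described below and were tested among 8540 features. Csf1r and Cd68 were not analysed here.

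Total RNA from whole liver was hybridized to Illumina Mouse Ref-8 v2.0 BeadChips, with 1 array for each of 4 wild type and 4 TgC6hp55 livers. All 8 mice were males on a C57BL/6J background, 21 weeks old and bred under specific pathogen free conditions, and no treatment is named for them. The transgenic lines were made in hybrid oocytes of C57BL/6J and CBA/J origin and backcrossed to C57BL/6J for more than 8 generations. TgC6hp55 mice carry, in addition to their own Tnfr1, a transgene in which the CollagenVI (Col6a1) promoter, active in mesenchymal cells, drives the human TNF receptor 1, followed by a human growth hormone (hGH) minigene. The study's main line descends from a single founder, and the integrated transgene removed exons of Icoslg and Dnmt3l, so that receptor, minigene and insertion site cannot be told apart in these samples.

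Kupffer cells sit in the lumen of the liver sinusoids, where they take up bacteria, cell debris and aged red blood cells from the portal blood. They settle in the embryo, renew themselves locally and can be replaced by blood monocytes, which switch on the Kupffer cell genes once in the sinusoid. Macrophages are also the main source of C1q, the molecule that starts the classical complement pathway by binding antibody complexes and dying cells, while hepatocytes make most of the other complement proteins. In bulk liver RNA, more cells of a type and more RNA per cell cannot be told apart.

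C1qb, C1qc and C1qa lie side by side on chromosome 4 and encode the 3 chains of C1q. C1qb, C1qc, Vsig4 and Clec4f had a Pearson r of 0.857 or more with each other between livers, as described below. Among their pairs only that of C1qc and Vsig4 passed the test, and Clec4f was nearly flat over the TgC6hp55 livers (SD 0.04). The sequences just upstream of these genes are shown, with that of Marco, the measured gene near background in wild type. Each is the 250 bases before the transcription start, read 5′ to 3′ along the gene, from RefSeq (GRCm38.p6), which held 6 of the 8 genes with a probe (C1qa and Adgre1 had no entry). Capitals mark GAGGAA or its reverse complement TTCCTC, the core letters bound by PU.1, the transcription factor that specifies macrophages.
C1qb (chr4:136886201-136886450, minus strand): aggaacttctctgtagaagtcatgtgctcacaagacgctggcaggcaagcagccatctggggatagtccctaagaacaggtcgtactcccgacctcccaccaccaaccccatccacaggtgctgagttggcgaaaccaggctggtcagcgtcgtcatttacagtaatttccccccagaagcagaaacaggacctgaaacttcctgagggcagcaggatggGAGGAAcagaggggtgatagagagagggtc
C1qc (chr4:136892915-136893164, minus strand): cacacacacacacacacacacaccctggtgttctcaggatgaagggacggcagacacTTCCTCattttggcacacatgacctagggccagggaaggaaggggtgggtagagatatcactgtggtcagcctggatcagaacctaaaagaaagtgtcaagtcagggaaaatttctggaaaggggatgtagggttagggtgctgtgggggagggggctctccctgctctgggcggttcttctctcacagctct
Vsig4 (chrX:96293439-96293688, minus strand): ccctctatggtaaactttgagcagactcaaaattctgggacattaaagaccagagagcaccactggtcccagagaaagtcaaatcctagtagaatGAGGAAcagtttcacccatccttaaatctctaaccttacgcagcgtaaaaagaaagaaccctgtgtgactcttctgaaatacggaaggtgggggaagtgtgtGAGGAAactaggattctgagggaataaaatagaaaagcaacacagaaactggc
Marco (chr1:120505025-120505274, minus strand): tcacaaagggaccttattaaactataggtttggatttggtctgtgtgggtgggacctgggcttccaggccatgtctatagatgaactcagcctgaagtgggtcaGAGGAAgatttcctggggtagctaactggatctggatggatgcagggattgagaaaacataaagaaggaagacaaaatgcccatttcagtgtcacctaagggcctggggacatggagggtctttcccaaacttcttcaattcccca
Clec4f (chr6:83656117-83656366, minus strand): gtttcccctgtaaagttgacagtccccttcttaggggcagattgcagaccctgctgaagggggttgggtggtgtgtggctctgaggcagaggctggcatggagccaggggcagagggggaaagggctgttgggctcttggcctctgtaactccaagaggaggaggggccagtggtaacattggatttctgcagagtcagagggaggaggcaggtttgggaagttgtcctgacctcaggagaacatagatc

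The PU.1 core letters occurred once upstream of C1qb, with the first base 30 bases before the start. They occurred once upstream of C1qc (193 bases before the start, reverse strand), once upstream of Marco (146 bases) and once upstream of Cd5l (66 bases, reverse strand). The Vsig4 sequence held them at 155 and 53 bases before the start, and the Clec4f sequence did not hold them. For comparison, 23.3% of 32851 upstream regions of the same length held these letters on either strand. The letters TGCTGA, part of the site bound by Maf factors, which act in macrophage maturation, were found upstream of C1qb, Clec4f and Cd5l, and in 16.1% of all upstream regions, with no overlap with a PU.1 core match in the printed sequences. A match of so few letters describes the sequence only.

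Between 10541 and 12011 of 25697 probes were detected per array (detection p-value under 0.05, the share of negative control beads at least as bright), and the number of arrays limits the precision. The mean deposited intensity spanned 167 to 179 in the wild type livers and 112 to 224 in the TgC6hp55 livers. TgC6hp55 array 4 had the lowest mean intensity and the fewest detected probes, and limma's array weights put it at 0.40, against 0.92 to 1.55 for the other arrays. Correlations between arrays were 0.986 to 0.992 within wild type, 0.982 to 0.992 within TgC6hp55 and 0.957 to 0.970 across genotypes. Levels below are log2 values of background-corrected, quantile normalized intensity, each from the brightest probe of a gene, and a gene was called higher or lower at a Benjamini-Hochberg adjusted p under 0.05 over all 8540 features in limma.

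Of the 10 listed genes, 4 were called higher in the TgC6hp55 livers (C1qa, C1qb, Adgre1 and Marco) and 0 lower, while C1qc, Vsig4 and Clec4f did not pass the test and Cd5l was not detected. Marco passed the detection filter through the TgC6hp55 arrays, where it was high. Among the 6 genes detected on all 8 arrays, 3 were called, and their median log2 fold change was 1.04, whereas the median of all features was -0.01. These counts stand against 6.48% of all features called higher and 4.51% called lower. In 3 genes (C1qa, C1qb and Adgre1) every TgC6hp55 liver was above every wild type liver, which held for 9.2% of all features. The fitted log2 fold change was above 0 in all 7 measured genes, as in 48.4% of features, and the p before adjustment was below 0.05 in all 7, as in 2088 features. The number of called genes among the 7 moved with single livers: without wild type liver 1, 2, 3 or 4 it was 3, 1, 6 and 2, and without TgC6hp55 liver 1, 2, 3 or 4 it was 1, 2, 1 and 3. Calls over all features fell in these fits too, from 553 higher and 385 lower to 358 to 545 higher and 254 to 364 lower. Scaling the arrays to a common median in place of quantile normalization left 1 call in limma, that of C1qa, and testing without the detection filter left 0, with 7 genes below 0.05 before adjustment under either setting. Over all features, median scaling called 152 higher and 141 lower, and the fit without the filter 424 and 322. SAM, the test that the methods name, called C1qa alone of the 7, and 228 of all features higher and 132 lower.

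C1qa, the A chain of C1q, measured 5.28, 5.74, 6.73 and 6.13 in wild type livers 1 to 4 and 6.98, 6.997, 7.49 and 7.22 in TgC6hp55 livers 1 to 4. The groups did not overlap, and the lowest wild type liver was liver 1. The means were 5.97 ± 0.62 and 7.17 ± 0.24 (SD, n = 4 each), a log2 fold change of 1.20 (2.30-fold, SE 0.25, limma adjusted p = 0.0102). This call held without any single liver (limma adjusted p 0.00071 to 0.0369), and of the other settings only the fit without the detection filter ended it (0.0529).

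C1qb, the B chain, measured 6.01, 7.13, 8.23 and 7.25 in the wild type livers and 8.26, 8.43, 8.80 and 8.35 in the TgC6hp55 livers. Wild type liver 3 lay just below the lowest TgC6hp55 liver, so that the groups were separate by a narrow margin. The log2 fold change was 1.31 (2.47-fold, SE 0.35, limma adjusted p = 0.0354). Leaving out single livers gave adjusted p between 0.00216 and 0.0894, and of these fits the call held only without wild type liver 1 or 3. With all livers kept, median scaling (limma adjusted p = 0.103), no detection filter (0.132) and a variance trend with robust estimation (0.125) each ended the call, in a range of 0.0117 to 0.132 over these settings, and SAM did not call it.

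C1qc, the C chain, followed the same order of wild type livers at its ends, with 6.16, 7.13, 8.09 and 7.02, while the TgC6hp55 livers measured 8.11, 8.16, 8.74 and 7.75. TgC6hp55 liver 4 lay below wild type liver 3, so the groups overlapped. The log2 fold change of 1.09 (2.13-fold, SE 0.33) did not pass (limma adjusted p = 0.0593). Of the fits without a single liver, it passed without wild type liver 3 (limma adjusted p = 0.00509) and in none of the others (0.0558 to 0.145). It also passed on the authors' normalized values (limma adjusted p = 0.0449) and with array weights (0.0396), with a range of 0.0137 to 0.241 over the settings that keep all livers.

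**Figure D1:**
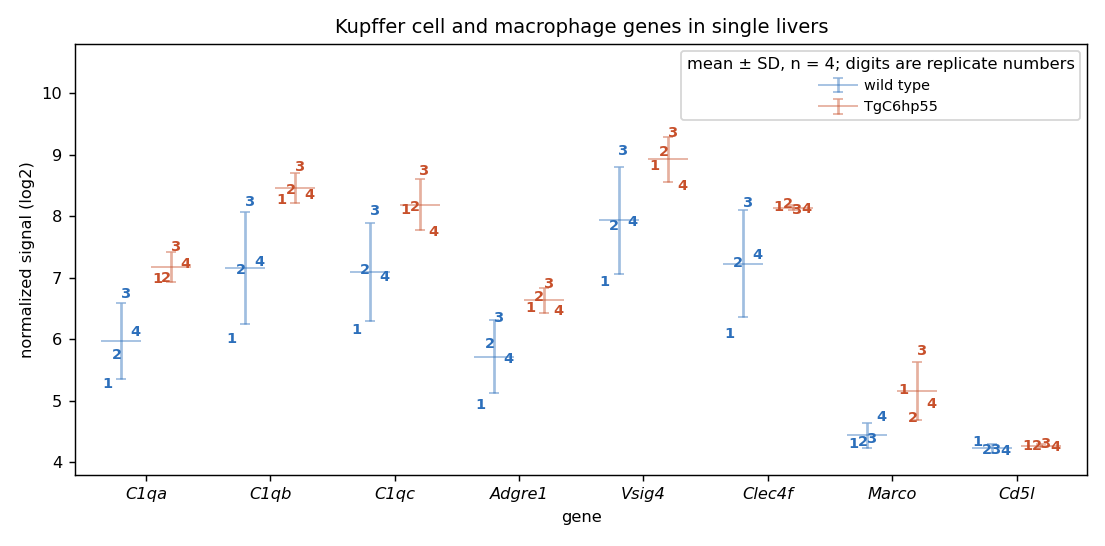
Normalized signal (log2, vertical axis) of the 8 genes with a probe, in wild type (blue) and TgC6hp55 (orange) livers; digits are the replicate numbers of single livers, horizontal marks the means and bars the SD (n = 4). Wild type liver 1 is the lowest liver of 7 genes, and Cd5l stays near 4.2 to 4.3 in all livers.

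Adgre1 encodes an adhesion receptor that is the classic surface antigen of mouse macrophages. It measured 4.93, 5.92, 6.35 and 5.68 in the wild type livers and 6.50, 6.69, 6.91 and 6.46 in the TgC6hp55 livers, with no overlap. The log2 fold change was 0.92 (1.89-fold, SE 0.24, limma adjusted p = 0.0324). Across fits without a single liver the adjusted p ran from 0.00622 to 0.0840, and the call held without wild type liver 1 or 3 or TgC6hp55 liver 4. A second probe of Adgre1 moved the same way with overlapping groups (5.19 ± 0.47 and 5.69 ± 0.37, SD, n = 4 each), by a log2 fold change of 0.51 (limma adjusted p = 0.202 with all probes in the fit). The remaining probe was detected on 1 TgC6hp55 array only and was not tested.

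Vsig4 encodes CRIg, the complement receptor with which Kupffer cells capture C3-coated bacteria from the blood. It measured 6.94, 7.84, 9.06 and 7.91 in the wild type livers and 8.82, 9.05, 9.36 and 8.49 in the TgC6hp55 livers. Wild type liver 3 lay above 3 of the 4 TgC6hp55 livers, and the log2 fold change of 0.99 (1.99-fold, SE 0.35) did not pass (limma adjusted p = 0.101). Without wild type liver 3 the adjusted p was 0.00527, and without any other liver it was 0.0900 to 0.223.

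Clec4f encodes a C-type lectin that in the mouse is restricted to Kupffer cells. The wild type livers measured 6.09, 7.24, 8.21 and 7.38 and the TgC6hp55 livers 8.14, 8.20, 8.11 and 8.12. The TgC6hp55 livers were nearly identical for this gene (SD 0.04), whereas the wild type livers were spread widely (SD 0.87), and wild type liver 3 was above all TgC6hp55 livers. The log2 fold change of 0.91 (1.88-fold, SE 0.33) did not pass (limma adjusted p = 0.106). It passed without wild type liver 3 (limma adjusted p = 0.00997) and not without any other liver (0.147 to 0.195) or under the settings that keep all livers (0.0888 to 0.298). A dimmer probe of the same gene, detected on 3 of 4 wild type and 4 of 4 TgC6hp55 arrays, separated the groups (4.83 ± 0.24 and 5.40 ± 0.15, SD, n = 4 each) and passed in the fit on all probes, with a log2 fold change of 0.56 (SE 0.13, limma adjusted p = 0.0181). The 2 Clec4f probes therefore disagreed on the call and not on the direction.

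Marco encodes a scavenger receptor for bacteria and particles, found on some macrophage populations. It measured 4.30, 4.33, 4.37 and 4.75 in the wild type livers and 5.19, 4.72, 5.81 and 4.96 in the TgC6hp55 livers. It was detected on 1 of 4 wild type arrays and on 4 of 4 TgC6hp55 arrays, so that it passed the filter through the group in which it was high, and its wild type values lie near background. The fold is thus set against values that were mostly not above background. The fitted log2 fold change was 0.73 (1.66-fold, SE 0.20, limma adjusted p = 0.0417), with adjusted p of 0.0203 to 0.114 without single livers and the call kept, of these fits, only without wild type liver 4 or TgC6hp55 liver 2 or 4. Cd5l, a secreted scavenger receptor family protein of tissue macrophages, was not detected on any array (4.23 ± 0.07 and 4.27 ± 0.02, SD, n = 4 each), and a difference in it was not detectable at this brightness.

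In 6 of the 7 genes, though not over all features, the wild type livers differed among themselves more than the TgC6hp55 livers did. The SD of a gene over the wild type livers had a median of 0.79 over the 7 genes, against 0.15 over all features, and in the TgC6hp55 livers the medians were 0.24 and 0.18. The wild type SD exceeded the TgC6hp55 SD in the 6 genes detected on all arrays and in 38.3% of all features, while the wild type SD of Marco is that of values near background. Only 0.269% of all features had a wild type SD above the median of these genes. The mean over the 7 genes was 5.67, 6.48, 7.29 and 6.59 in wild type livers 1 to 4 and 7.43, 7.46, 7.89 and 7.33 in TgC6hp55 livers 1 to 4. Wild type liver 1 was the lowest wild type liver in 7 of 7 genes and liver 3 the highest in 6, while TgC6hp55 liver 3 was the highest TgC6hp55 liver in 6. Among the TgC6hp55 arrays, array 3 also had the highest mean deposited intensity (224) and array 4 the lowest (112), in the same places as in the gene means. The wild type arrays 1 and 3, at 179 and 177, did not differ in this way. The part of array brightness in the TgC6hp55 order was not tested.

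**Figure D2:**
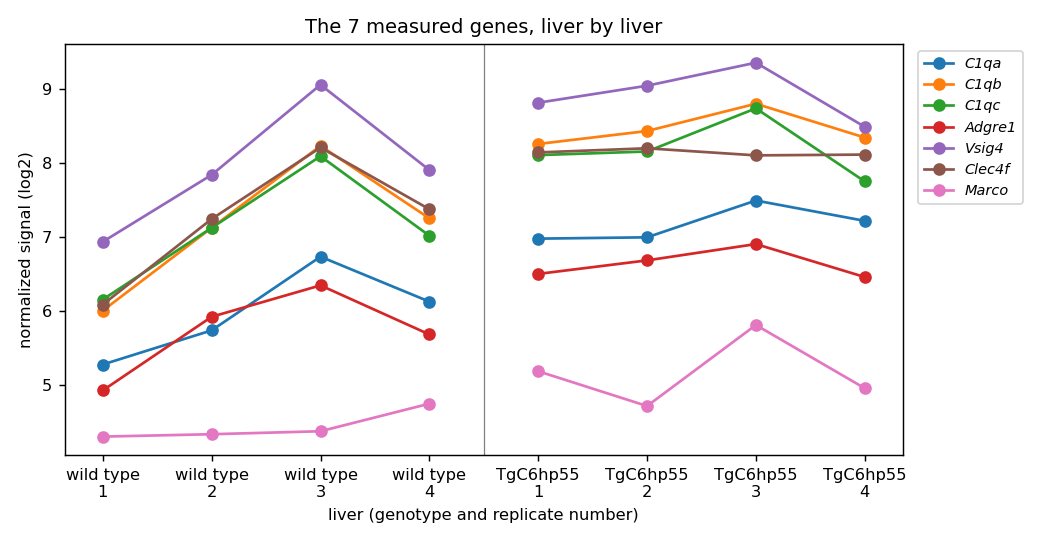
Normalized signal (log2, vertical axis) of the 7 measured genes in each liver (horizontal axis, genotype and replicate number); lines join the values of a gene within a genotype only to guide the eye. In wild type, 6 genes are lowest in liver 1 and highest in liver 3, with Marco highest in liver 4; in TgC6hp55, Clec4f is flat.

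Covariation between livers was measured on deviations from the genotype mean, so that the difference between genotypes did not enter. All 21 pairs of the 7 genes had a positive Pearson r over the 8 livers (median 0.90). The 15 pairs without Marco lay between 0.857 and 0.987, and the 6 pairs with Marco between 0.068 and 0.383. As Marco was near background on 3 of 4 wild type arrays, its r does not show whether it moved with the other genes. Without the 2 livers farthest from the median of the first gene of a pair, the pairs without Marco had an r of 0.774 or more. For these pairs the 2 livers were chosen by level over both genotypes, not by deviation, and the genotype means were not taken again. In the pairs without Marco, wild type liver 3 (mean deviation 0.79) always stayed. The check therefore cannot show whether r depended on that liver. Adjusted over the 21 pairs, 3 passed an exact two-sided permutation test of livers within genotype, which allows 576 rearrangements and a smallest p of 0.00174. For C1qc and Adgre1, r was 0.959 and Spearman's rho 1 (exact p = 0.00174 and adjusted p = 0.0365 for each), and r was 0.945 without the 2 farthest livers. For C1qc and Vsig4, r was 0.987 (exact p = 0.00347, adjusted p = 0.0365), rho 0.929 (exact p = 0.0139, adjusted p = 0.0583) and r without the 2 farthest livers 0.977. For C1qa and C1qb, r was 0.956 (exact p = 0.00521, adjusted p = 0.0365), rho 0.881 (exact p = 0.0139, adjusted p = 0.0583) and r without the 2 farthest livers 0.956. No pair with Clec4f passed. Clec4f was nearly flat over the TgC6hp55 livers (SD 0.04), so its r rests mostly on the wild type livers. When any single liver was left out, 0 pairs passed the exact test, for which fewer rearrangements then exist, and the median r was 0.742 to 0.946.

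**Figure D3:**
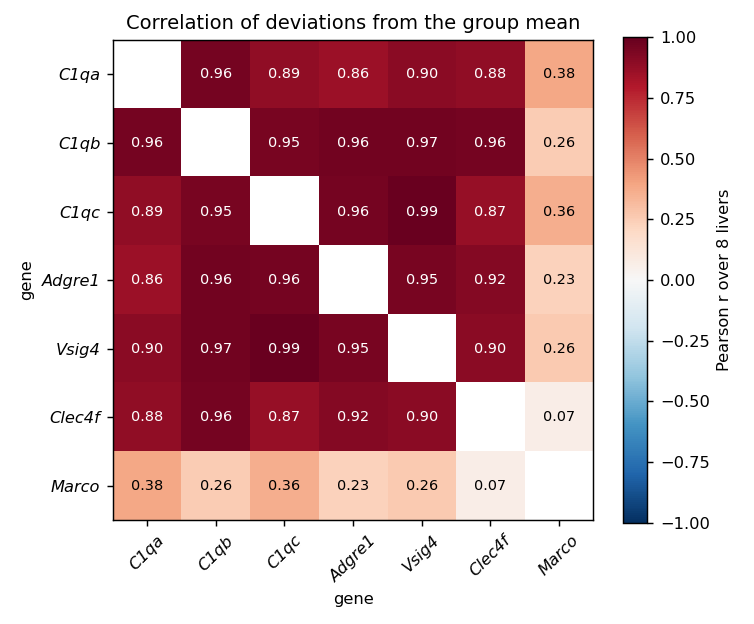
Pearson r between pairs of the 7 measured genes (both axes), computed over 8 livers on deviations from the genotype mean; colour gives r from -1 to 1. The 15 pairs without Marco lie at 0.857 or above. The 6 pairs with Marco, at 0.383 or below, rest on wild type values near background.

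Among 7875 other named genes, the median r with the mean deviation of the 7 genes was -0.03, and 0.686% of genes were above 0.9. The 10 with the highest r over the 8 livers were Lgmn (0.988), Fcna (0.982), Tmsb4x (0.980), Axl (0.978), Fcgr4 (0.974), Folr2 (0.973), Adgre5 (0.970), Gapdh (0.968), Lst1 (0.964) and Lgals3 (0.964). Lgmn encodes a lysosomal protease, Fcna a ficolin made by macrophages, Fcgr4 an IgG receptor, Folr2 a folate receptor of tissue macrophages and Axl a receptor for dying cells. Of these 10, Axl, Lgals3, Tmsb4x (log2 fold change 0.71, limma adjusted p = 0.0127) and Lst1 (1.18, limma adjusted p = 0.0145) were called higher. Gapdh, a glycolytic enzyme of all cells, shared the lowest and the highest wild type liver and the highest TgC6hp55 liver with these genes, and was not called between genotypes. Its wild type livers measured 11.98, 12.30, 12.53 and 12.22 and its TgC6hp55 livers 12.01, 11.94, 12.16 and 11.97, a log2 fold change of -0.24 (limma adjusted p = 0.260).

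Of 12 other Kupffer cell genes, 10 were measured, 3 were called higher and 0 lower, with a median log2 fold change of 0.71 and 10 of 10 above 0. Spic, not called, was detected on 1 of 4 wild type and 3 of 4 TgC6hp55 arrays. It passed the filter through the group in which it was high, so its direction was partly set by the filter. For this list and those below, the shares over all 8540 features were 6.48% called higher and 4.51% called lower. Hpgd, which inactivates prostaglandins, measured 8.32, 8.04, 8.30 and 8.24 in wild type and 8.91, 9.20, 9.10 and 8.82 in TgC6hp55 livers. It separated the genotypes with little spread in either (log2 fold change 0.78, SE 0.11, limma adjusted p = 0.000947). Sdc3, a heparan sulfate proteoglycan (0.98, limma adjusted p = 0.00935), and Slc40a1, the iron exporter ferroportin (0.63, limma adjusted p = 0.00509), were called as well. Cd163, the haemoglobin scavenger receptor (0.81, limma adjusted p = 0.0580), Folr2 (0.87, 0.0703) and Timd4, a phosphatidylserine receptor of long-lived Kupffer cells (0.71, 0.0738), did not pass. Without wild type liver 3 the list had 6 genes called higher, and under median scaling it had 0 in limma (6 below 0.05 before adjustment).

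Of 23 genes shared by macrophages and other myeloid cells, 16 were measured, 8 were called higher and 0 lower, and all 16 had a log2 fold change above 0 (median 0.73). Cd14, called higher (0.75, limma adjusted p = 0.021), and Cd53, not called, were detected on 2 of 4 wild type and 4 of 4 TgC6hp55 arrays. They passed the filter through the group in which they were high, so their direction was partly set by the filter. The largest change of the list was that of Ctsc, the protease that activates granule serine proteases, at 9.16, 9.25, 9.52 and 9.12 in wild type and 10.89, 10.96, 10.65 and 10.83 in TgC6hp55 livers. Its log2 fold change was 1.57 (2.97-fold, SE 0.12, limma adjusted p = 3.2e-06), and its wild type livers lay close together. Fcer1g, the signalling chain of Fc receptors, measured 6.16, 6.84, 7.81 and 7.15 in wild type and 8.18, 8.10, 8.25 and 8.28 in TgC6hp55 livers (log2 fold change 1.21, SE 0.26, limma adjusted p = 0.0121). Its wild type livers kept the order of the C1q genes at both ends, and the groups did not overlap. Axl (1.04, limma adjusted p = 0.0164) and Laptm5, a lysosomal membrane protein of blood-derived cells (0.995, limma adjusted p = 0.00412), also rose. Without wild type liver 3 the list had 14 genes called, and without any other liver 6 to 9. Under median scaling it had 2.

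Genes of monocyte-derived and lipid-associated macrophages were mostly too dim to test. Of 16 listed, 14 had a probe and 6 were measured. Those not measured included Ccr2, the chemokine receptor of blood monocytes, Cx3cr1, Itgam, Itgax, Trem2 and Gpnmb. Of the 6, 2 were called higher and 0 lower (median 0.42), and 5 had a log2 fold change above 0. Cd9 went the other way (-0.37, limma adjusted p = 0.240), and S100a4 was near 0 (0.08, limma adjusted p = 0.765). Clec7a, not called, was detected on 2 of 4 wild type and 4 of 4 TgC6hp55 arrays, so it passed the filter through the group in which it was high. Lgals3, a galactose-binding lectin of phagocytes, measured 5.86, 6.50, 7.25 and 6.51 in wild type and 7.45, 7.66, 7.68 and 7.48 in TgC6hp55 livers, without overlap (log2 fold change 1.04, SE 0.23, limma adjusted p = 0.0117). Plac8 passed at 0.70 (SE 0.19, limma adjusted p = 0.0343) with overlapping groups, and its adjusted p was 0.00614 to 0.0961 without single livers, passing only without wild type liver 3 or TgC6hp55 liver 4. The count for the list fell to 1 without wild type liver 1 or 4 or TgC6hp55 liver 2 or 3, and to 0 in limma under median scaling or without the detection filter (3 and 4 below 0.05 before adjustment).

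**Figure D4:**
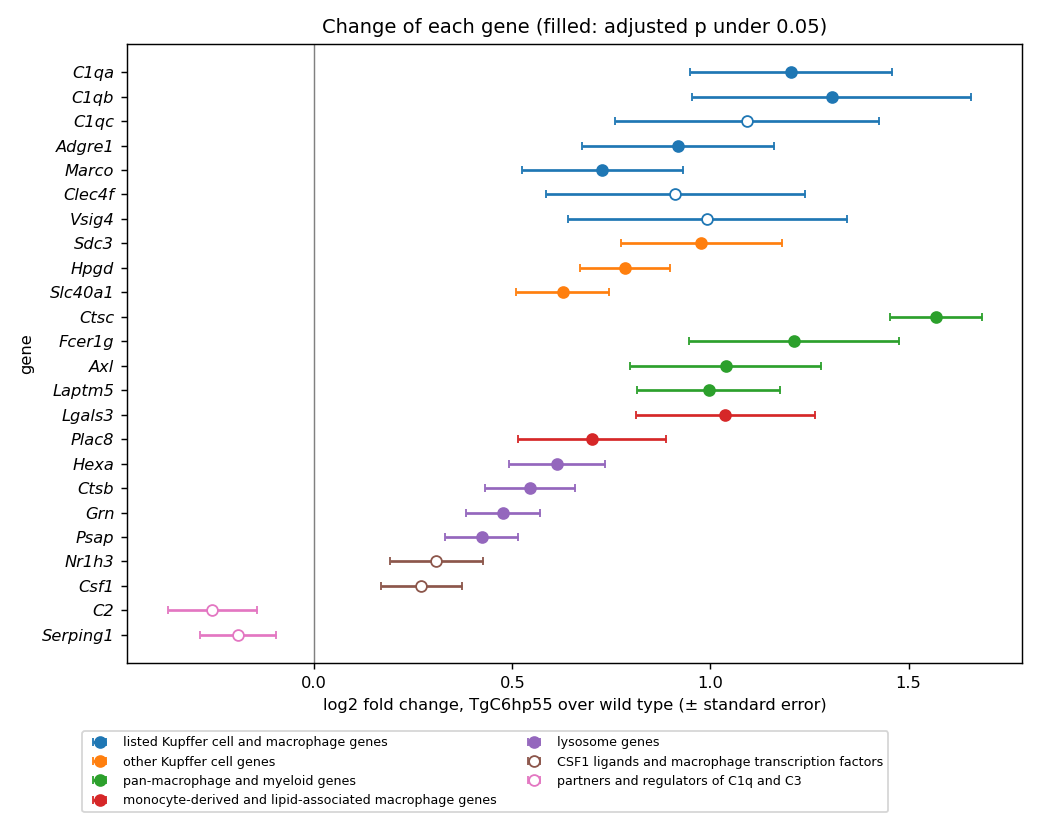
Log2 fold change, TgC6hp55 over wild type (horizontal axis, bars are the limma standard error), of the 7 measured genes and of the genes named from 6 further lists by colour; filled points passed an adjusted p of 0.05. C1qc, Clec4f and Vsig4 are open beside filled C1qa, C1qb, Adgre1 and Marco, and C2 and Serping1 lie below 0.

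The proteins that act with C1q gave no call. Of 9 listed partners and regulators in the complement cascade, 6 were measured, 0 were called in either direction in limma, and the median log2 fold change was -0.19. The smallest adjusted p among them belonged to C2, a serine protease cleaved by C1s (-0.26, limma adjusted p = 0.185), followed by Serping1, the C1 inhibitor (-0.19, limma adjusted p = 0.247). C2 alone was below 0.05 before adjustment (unadjusted p = 0.0424 in limma), and SAM also called 0 of the 6. The ligand and transcription factor genes of macrophages gave 0 calls among 5 measured of 10 listed (median 0.20), with Nr1h3, the LXR alpha receptor of Kupffer cell identity (0.31, limma adjusted p = 0.128), and Csf1, the growth factor of macrophages (0.27, limma adjusted p = 0.128), nearest to the threshold. These were the 2 genes of the list below 0.05 before adjustment in limma, and SAM called 0. Csf1 was detected on 2 of 4 wild type and 4 of 4 TgC6hp55 arrays, so it passed the filter through the group in which it was high.

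Among 13 lysosome genes, which all cells use and phagocytes use heavily, 11 were measured, 4 were called higher and 0 lower (median 0.25). Their summed signal was 14340 to 15570 in wild type and 16920 to 19670 in TgC6hp55 livers, without overlap. The rise of this sum came mostly from the bright genes Ctsb and Psap, both called, as given below. Of the 11, 8 had a log2 fold change above 0. Ctsl (-0.40, limma adjusted p = 0.198), Lamp1 (-0.06, 0.745) and Lamp2 (-0.05, 0.814) lay below 0 and were not called. The mean deviation of the list had an r of 0.01 with that of the Kupffer cell and macrophage genes. Hexa, a subunit of beta-hexosaminidase, measured 7.87, 7.98, 8.02 and 8.03 in wild type and 8.44, 8.40, 8.59 and 8.91 in TgC6hp55 livers (log2 fold change 0.61, limma adjusted p = 0.00709). Here the wild type livers lay close together, unlike in the C1q genes. The protease Ctsb (0.54, limma adjusted p = 0.00978), the precursor of the sphingolipid activator proteins, Psap (0.42, limma adjusted p = 0.0120), and progranulin, Grn (0.48, limma adjusted p = 0.00707), were called too. These 4 calls held without any single liver, but with median scaling of the arrays 0 of the list were called in limma (2 below 0.05 before adjustment), and SAM called 0.

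Markers of other liver cells were read in the same arrays. Their counts stand against 6.48% of all features called higher and 4.51% called lower. Before adjustment, 2088 of 8540 features had a limma p below 0.05, so single markers below it are few to read. The summed signal of 7 measured sinusoidal endothelial markers was 1980 to 2916 in wild type and 2931 to 3241 in TgC6hp55 livers, so that these sums did not overlap either. All 7 had a log2 fold change above 0 (median 0.35), 6 had a p below 0.05 before adjustment, and 1 was called higher in limma (Fcgr2b, an inhibitory IgG receptor also present on myeloid cells, log2 fold change 0.69, limma adjusted p = 0.0107). For 5 stellate cell and fibroblast markers, with 0 called in limma (1 below 0.05 before adjustment) or in SAM, the sums were 1416 to 2140 and 1893 to 2539. For 5 hepatocyte markers, with 0 called in limma (2 below 0.05 before adjustment) or in SAM, they were 44070 to 45960 and 44150 to 47280. This sum is a weak measure, since it is carried by probes at the top of the scale (Trf, the transferrin gene, was at 13.91 in all 4 wild type livers). Of these 5 markers, 4 had a log2 fold change above 0 (median 0.03). The 2 below 0.05 before adjustment went in opposite directions. Cps1, a urea cycle enzyme, had a log2 fold change of -0.42 (limma adjusted p = 0.0994). That of Alb, the albumin gene, was 0.38 (limma adjusted p = 0.156), and its probe was dim (mean 5.37 in wild type). The sums of the other Kupffer cell genes were 2386 to 3540 and 3885 to 4849, and those of the macrophage and myeloid genes 2069 to 4315 and 5516 to 6878. The other Kupffer cell sum is carried mostly by Slc40a1 (means 10.68 in wild type and 11.31 in TgC6hp55 livers). Of single features, 9.2% had every TgC6hp55 liver above every wild type liver. Of the neutrophil markers, 2 were measured (43.9 to 80.6 and 57.9 to 92.1) and 0 called, with 0 below 0.05 before adjustment in limma and 0 called by SAM. Of 5 T cell markers with a probe, 2 were measured (40.3 to 48.5 and 47.9 to 63.6) and 0 called in limma (1 below 0.05 before adjustment) or SAM. These 2, Cd3g and Cd3e, were each detected on 1 of 4 wild type arrays, and on 4 and 3 of 4 TgC6hp55 arrays. They passed the filter through the group in which they were high. The natural killer and dendritic cell markers were not measured on enough arrays, at 0 of 6 and 0 of 5. The cholangiocyte, B cell and platelet lists had 1 measured marker each, with 0 called in limma or SAM and 0 below 0.05 before adjustment. Of the erythroid markers, Alas2, which starts haem synthesis in red cell precursors, was called lower, at 10.31, 10.44, 10.42 and 10.30 in wild type and 7.91, 7.20, 7.36 and 8.62 in TgC6hp55 livers (log2 fold change -2.59, limma adjusted p = 3.05e-05). The globin gene Hba-a1 was not called (0.65, limma adjusted p = 0.326) and was spread more widely over the TgC6hp55 livers (SD 0.91) than over wild type (SD 0.46). In wild type livers, liver 1 had the lowest sum for the macrophage, endothelial and stellate lists alike. Over the 8 livers, the mean deviation of the stellate and fibroblast markers followed that of the 7 genes with r 0.864 (exact p = 0.0104, adjusted p = 0.0313) and rho 0.857 (exact p = 0.0191, adjusted p = 0.0573), and r was 0.608 without the 2 livers farthest from the median. For the endothelial markers r was 0.672 (exact p = 0.158, adjusted p = 0.237) and rho 0.619 (exact p = 0.181, adjusted p = 0.271), and r was 0.124 without those livers. For the hepatocyte markers, the last of the 3 lists compared, r was -0.201 (exact p = 0.616, adjusted p = 0.616) and rho 0.095 (exact p = 0.832, adjusted p = 0.832), and r was 0.653 without those livers. The permutations were two-sided and within genotype. The part of endothelial or stellate RNA in the differences between genotypes was not tested.

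**Figure D5:**
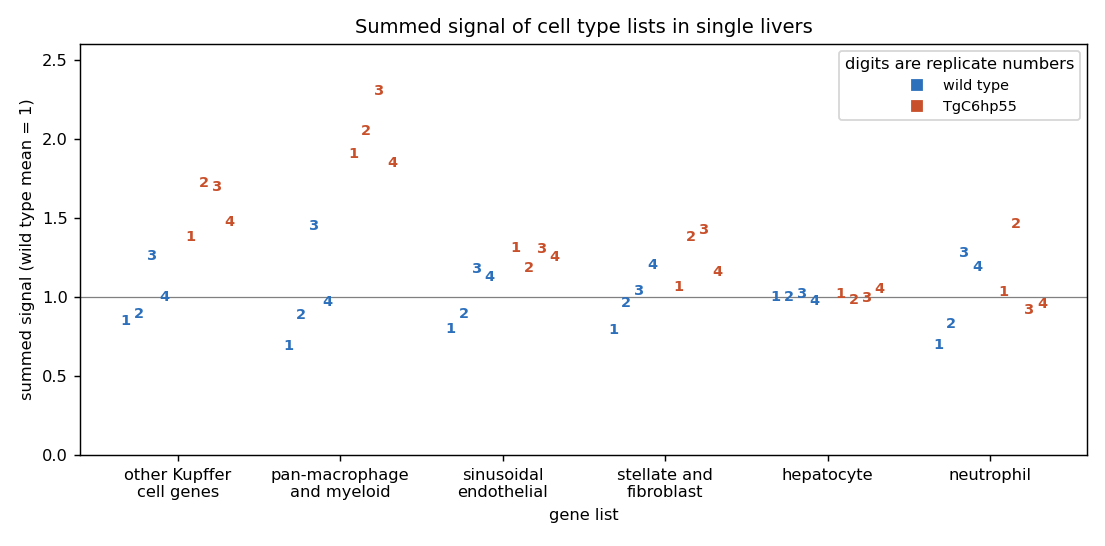
Summed normalized signal of the measured genes of 6 lists in single livers (vertical axis, relative to the wild type mean of the list; digits are replicate numbers, blue wild type, orange TgC6hp55). The other Kupffer cell, the pan-macrophage and, by a narrow margin, the endothelial sums do not overlap between genotypes, and the stellate, hepatocyte and neutrophil sums overlap. The other Kupffer cell sum is carried mostly by Slc40a1.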

How the data were processed

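Liver RNA of 4 wild type and 4 TgC6hp55 mice was hybridized to Illumina Mouse Ref-8 v2.0 BeadChips. The authors deposited bead intensity per probe without normalization (a background had been subtracted, as values reach -16), the detection p-value beside each intensity, and cubic spline normalized intensity, all from GenomeStudio 2011.1. The genome build of the probes, the slides and the scans are not given in the sources used here. Table columns were matched to samples by genotype and number; the descriptions of the TgC6hp55 samples repeat a number, so their titles were used. For all 8 samples the column without normalization correlated best with the same sample's normalized column (rank correlation at least 0.998, and at most 0.891 with others). Of 25697 probes, 23978 had a single symbol and 1719 had none in the platform annotation, and 4 older symbols were updated from RefSeq (GRCm38.p6).

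The deposited intensity was corrected and quantile normalized with neqc in limma 3.58.1 (R 4.3.3, normexp from detection p-values, offset 16) and taken to log2. Probes with a detection p-value under 0.05 on at least 4 of 8 arrays were kept (11100), then the brightest probe per gene, leaving 8540 features, 7882 with a symbol. Genotypes were compared with lmFit and eBayes and Benjamini-Hochberg adjustment over all features, which was tested on simulated data. Nothing but genotype entered the fit. The p-values rest on the spread between these livers, after eBayes draws the variance of each gene toward that of all features. The standard error of a widely spread gene is thus smaller than its own livers give. The wild type SD had a median of 0.79 over the measured Kupffer cell and macrophage genes, against 0.15 over all features. With a variance trend and robust estimation, the call of C1qb ended (limma adjusted p = 0.125). The calls of C1qa, Adgre1 and Marco held there. Alternatives covered background, scaling, the authors' normalized values, the detection filter, all probes, the variance model, weights per array, a replicate block, the methods' SAM (significance analysis of microarrays, fold over 1.7, false discovery rate under 1%), and leaving out each liver.

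All listed genes are named. From each further list the called genes with the largest changes are named (at most 4), or, in a list without calls, at most 2 by p, and the 10 genes whose deviations correlated best with those of the 7 genes. Other genes given with values or detection counts were chosen after their values were seen. These were Cd163, Folr2, Timd4, Spic, Cd14, Cd53, Clec7a, Cd9, S100a4, Ctsl, Lamp1, Lamp2, Fcgr2b, Trf, Cps1, Alb, Cd3g, Cd3e, Alas2 and Hba-a1. The genes, lists and markers were chosen with earlier results of these data known.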

Additional observations from a re-analysis of the deposited data

Results flagged for a closer look

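In 3 of 64 groups of 4 livers (32 genes in 2 genotypes), the highest or lowest liver stood apart from the other three by more than Dixon's critical value, judged by the gap to the next liver as a share of the whole range. Chance alone gives about 5% of groups. For Marco in wild type the share was 0.838: liver 4 measured 4.75 and the next liver 4.37, and liver 4 was also the only wild type array on which Marco was detected. For Laptm5 in TgC6hp55 it was 0.991, with liver 1 at 9.10 below the next liver at 9.50. For Lgmn in TgC6hp55 it was 0.839, with liver 3 at 8.59 above the next at 8.43.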

How the results depend on the processing

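No fold change changed sign among the genes run under the alternatives, which were the 7 Kupffer cell and macrophage genes and those named by rule from the 6 lists. Of the 7, 4 were called, and 1 to 6 without single livers, where 358 to 545 of all features were called higher, against 553. Median scaling called 1 of them, no filter on dim probes 0 of them (7 below 0.05 before adjustment in limma), and SAM 1, C1qa. Median scaling called 0 other Kupffer cell genes, 2 pan-macrophage, 0 monocyte-derived and 0 lysosome genes, against 3, 8, 2 and 4, with 6, 12, 3 and 2 below 0.05 before adjustment in limma. It shifted the median of all features by -0.05 and called 152 features higher and 141 lower, against 553 and 385. Without a filter 3 pan-macrophage and 0 monocyte-derived genes were called in limma (14 and 4 before adjustment), and 424 features higher and 322 lower. SAM called 5 pan-macrophage, 1 monocyte-derived and 0 lysosome genes, and 228 features higher and 132 lower. The cause was not tested. Without single livers the lists ranged from 3 to 6 other Kupffer cell, 6 to 14 pan-macrophage and 1 to 2 monocyte-derived genes. Pairs of genes past the exact test numbered 15 under median scaling, against 3, and 0 to 0 without single livers.

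Livers with the same number did not deviate together throughout (r 0.158, 0.122, 0.011 and 0.112 for numbers 1 to 4, with 3 of 4 numbers correlating best with their own), so the number was not taken as a pairing. With the replicate block, C1qc (limma adjusted p = 0.0137) and Vsig4 (0.0347) were gained and Marco (0.0519) was lost, so that 5 of the 7 genes, 4 other Kupffer cell, 11 pan-macrophage, 2 monocyte-derived and 4 lysosome genes were called. Dim genes, Marco and Cd5l among them, are limited by signal over background, and 4 livers a group limit the rest.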
